A study of Gallus gallus with 88 samples.

Results

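A list of 9 genes was taken for lactate production and the glycolytic steps before it in chicken breast muscle, namely LDHA, LDHB, PYGL, HK2, PGM1, TPI1, GAPDH, PGK1 and ENO1. Of these 9 genes, 7 had a probe set that names 1 gene, out of 11528 gene symbols on the array, and each of the 7 was read from that probe set. HK2 and PGM1 had none and are not described further. The PGK1 probe set carries the name PGK2 in the annotation used here, with PGK1 listed as a synonym of the same gene. PYGL had 1 further probe set that names several genes, which was not used.

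Pectoralis major muscle of broilers was measured on 88 Affymetrix 1-colour arrays, with each group holding 8 animals per the series design. Eggs were kept at 37.8 °C except during a treatment interval, when they were 1 degree warmer (38.8 °C) or cooler (36.8 °C). Embryos were sampled on day 10, after treatment on days 7 to 10, and on day 13, after treatment on days 10 to 13, with 8 arrays each at 38.8 °C, at 36.8 °C and in controls at 37.8 °C. Chickens aged 35 days after hatch came from eggs held at 38.8 °C or at 36.8 °C, on days 7 to 10 or on days 10 to 13, with 8 arrays for each of these 4 groups and 8 control arrays. The day 35 controls, of which 2 carry the label of days 7 to 10 and 6 that of days 10 to 13, were kept at 37.8 °C throughout and served all 4 treated groups. The labels give no sex, and after hatch all birds had the same housing and diet. Values are log2 signals, so a difference of 1 is a doubling of signal.

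Glycolysis turns glucose into pyruvate, and lactate dehydrogenase converts pyruvate and lactate into each other. The enzyme is built from subunits encoded by LDHA, the form of fast muscle that works on stored glycogen, and LDHB, the form of heart and other oxidative tissues. Breast muscle of the chicken consists mainly of fast glycolytic fibres at slaughter age, and enzyme studies of chick development describe a passage from LDHB-type to LDHA-type enzyme in this muscle.

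Within each age the arrays resembled each other, their median correlations to the rest being 0.904 to 0.955 (day 10), 0.947 to 0.963 (day 13) and 0.901 to 0.947 (day 35). Markers of fast muscle were present on all arrays, with a mean over 14 genes of 9.68 to 10.35 (day 10), 10.95 to 11.36 (day 13) and 11.62 to 12.41 (day 35). On day 10 a pair of arrays from 38.8 °C, replicates 9 and 13, stood apart: 19 of 20 liver markers were above all 22 other arrays of that age on both. APOB, for example, was 15.13 and 14.53 there, against 1.23 to 5.28 on the others. Results are also given without these arrays where that changes a call or moves a called difference by over 1.5 times. The liver list, chosen after values were seen, averaged 5.97 to 6.42 on day 13 arrays. At day 35 it followed the order in which the samples are listed: all 38.8 °C arrays stand together with 4 controls (listing block 1) and all 36.8 °C arrays with the other 4 (listing block 2). Its mean was 2.55 to 5.24 in treated birds and 3.24 to 3.85 in controls of block 1, and 5.97 to 10.41 in treated birds and 6.67 to 10.18 in controls of block 2.

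Between the embryonic ages, LDHB signal was lower on day 13 than on day 10 at every temperature while LDHA showed no difference past the test. In controls LDHB was 11.90 at its lowest, 11.98 at the median and 12.13 at its highest on day 13, against 12.19, 12.31 and 12.41 on day 10. No day 13 control reached any day 10 control. At 38.8 °C the lowest, median and highest LDHB values were 11.80, 11.89 and 12.14 on day 13, against 12.13, 12.24 and 13.61 on day 10, so that only the extremes touched. At 36.8 °C they were 11.98, 12.05 and 12.19 on day 13, against 12.15, 12.34 and 12.40 on day 10, again with a small overlap.

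In the limma fit over all 48 embryo arrays, the LDHB difference of day 13 minus day 10 passed the threshold at 38.8 °C, at -0.62 ± 0.12 (SE, adjusted p = 0.000163). The size of that difference rested on the 2 arrays with liver markers, whose LDHB was 13.61 and 13.34, and without them it was -0.31 ± 0.05 (adjusted p = 1.1e-05). In controls the difference was -0.31 ± 0.12 and missed the threshold (adjusted p = 0.0582), and at 36.8 °C it was -0.25 ± 0.12 (adjusted p = 0.146). Without the same 2 arrays, which widen the error that all groups share, both passed: controls at -0.31 ± 0.05 (adjusted p = 1.25e-06) and 36.8 °C at -0.25 ± 0.05 (adjusted p = 6.76e-05). The interaction tests, which ask whether the change differs at 38.8 °C or 36.8 °C from that in controls, called 0 of 7 members and 0 percent of probe sets. They had a lowest adjusted p of 0.969 among members and 3.88 and 2.95 percent of probe sets at an unadjusted p under 0.05. In whole tissue, fewer cells of a type and less RNA per cell cannot be told apart.

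LDHA encodes the subunit of fast muscle. Its signal in controls was 11.90, 12.06 and 12.33 (lowest, median, highest) on day 13, against 11.79, 12.11 and 12.26 on day 10. The ranges lay almost on top of each other, and the difference was 0.03 ± 0.07 (SE, limma adjusted p = 0.827). At 38.8 °C the LDHA values were 11.98, 12.09 and 12.37 on day 13 and 11.82, 12.10 and 12.40 on day 10, and at 36.8 °C 11.93, 12.15 and 12.32 on day 13 and 11.81, 12.01 and 12.25 on day 10. The corresponding differences were 0.02 (adjusted p = 0.916) and 0.13 (adjusted p = 0.212).

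**Figure D1:**
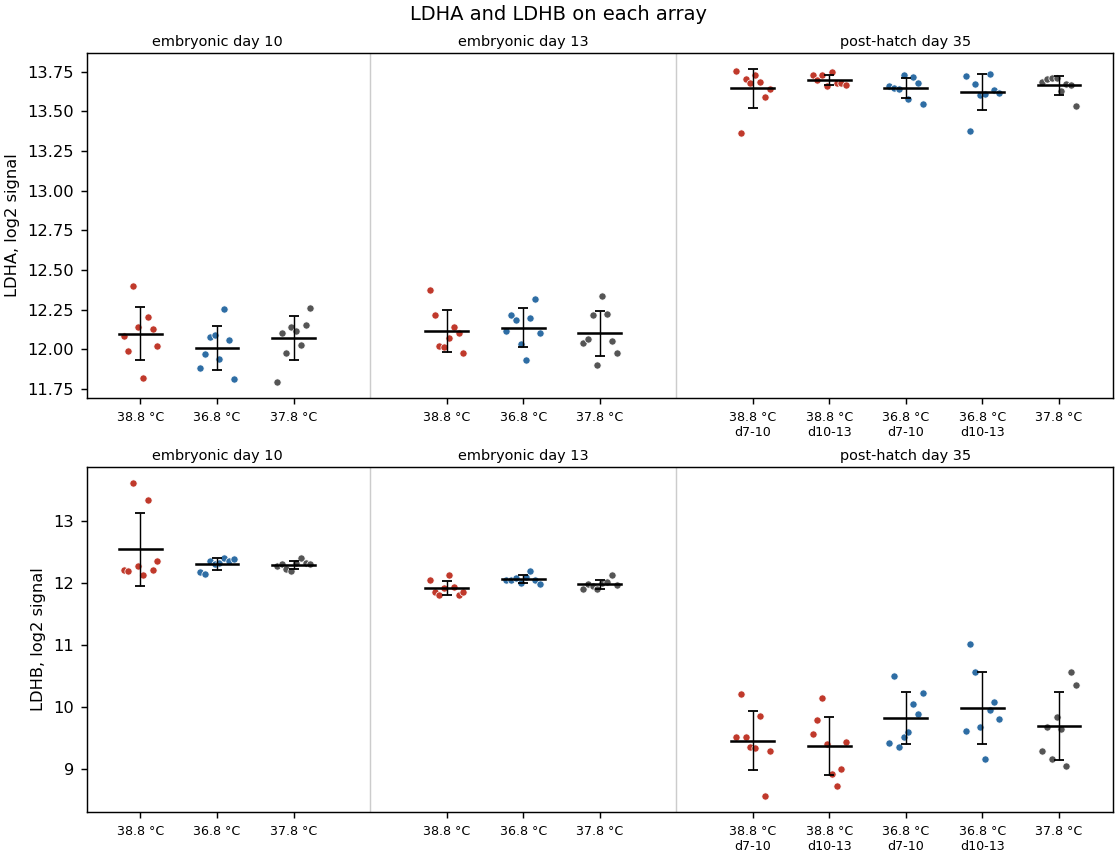
Log2 signal of LDHA and LDHB on each of the 88 arrays, by age and incubation temperature, with the mean ± SD of each group of 8. On embryo arrays both genes sit near 12, apart from 2 day 10 arrays at 13.61 and 13.34 for LDHB, and on day 35 arrays LDHA lies between 13.37 and 13.76 and LDHB between 8.57 and 11.02.

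The difference LDHA minus LDHB within each array was then compared between groups. Since the 2 probe sets can differ in how strongly they bind their targets, its sign carries no meaning and only its movement was tested. In controls it was -0.08, 0.10 and 0.33 (lowest, median, highest) on day 13, against -0.49, -0.21 and -0.05 on day 10. The 38.8 °C arrays had -0.06, 0.21 and 0.36 on day 13 against -1.22, -0.26 and -0.09 on day 10, and the 36.8 °C arrays had -0.17, 0.09 and 0.26 on day 13 against -0.58, -0.29 and -0.14 on day 10. The ages did not overlap at 38.8 °C and overlapped by a few hundredths in the other groups.

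This within-array difference rose at all 3 temperatures, by 0.34 ± 0.07 in controls, 0.64 ± 0.17 at 38.8 °C and 0.37 ± 0.07 at 36.8 °C (SE, n = 8 and 8 arrays each). Each had an adjusted p of 0.00233 by the exact 2-sided permutation test over arrays, adjusted over 15 comparisons. Without the 2 arrays with liver markers the rise at 38.8 °C was 0.39 ± 0.07 (exact permutation test, adjusted p = 0.00333). With arrays exchanged only within listing blocks, the adjusted p of this test was 0.00354 in controls. At 38.8 °C and at 36.8 °C both ages lie in a single block, so a test within blocks repeats the main one there.

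At day 35 the levels stood far apart from those of the embryo. LDHA was 13.53, 13.68 and 13.71 (lowest, median, highest) in controls, and LDHB was 9.05, 9.67 and 10.57. LDHA minus LDHB was 3.09, 4.0 and 4.62 in the same birds. Its control means were -0.23 ± 0.15 on day 10, 0.11 ± 0.14 on day 13 and 3.96 ± 0.58 at day 35 (SD, n = 8 each). The day 35 array medians of 6.32 to 6.76 lie below those of the embryo arrays, 7.56 to 8.13, and how the sets were scaled is not given in the sources used here, so these ages were set side by side with no test. Within an array that scaling cancels only if it shifts both genes alike.

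**Figure D2:**
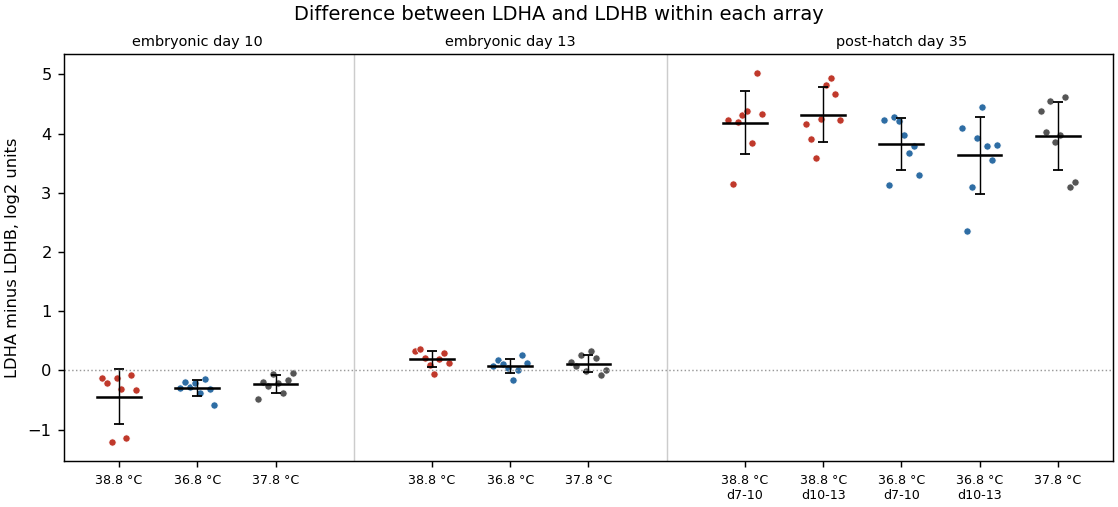
LDHA minus LDHB (log2) within each array, by age and incubation temperature, with the mean ± SD of each group of 8. Day 10 control arrays lie between -0.49 and -0.05, day 13 control arrays between -0.08 and 0.33, and day 35 arrays of all groups between 2.36 and 5.03.

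PGK1 makes ATP from the product of GAPDH. In controls its values were 9.81, 9.86 and 9.98 on day 13, against 9.97, 10.13 and 10.36 on day 10, which met only at the edge. PGK1 fell by 0.27 in controls (limma difference -0.27 ± 0.08, adjusted p = 0.00502) and by 0.34 at 38.8 °C (-0.34 ± 0.08, adjusted p = 0.000738). Without the 2 arrays with liver markers the 38.8 °C difference was -0.24 (adjusted p = 0.0145). At 36.8 °C its values were 9.86, 9.99 and 10.19 on day 13 and 9.89, 10.14 and 10.38 on day 10, a difference of -0.17 that missed the threshold (adjusted p = 0.103).

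GAPDH, the enzyme that oxidises glyceraldehyde 3-phosphate and a common reference gene in muscle, was 13.71, 13.74 and 13.80 in day 13 controls, against 13.55, 13.65 and 13.69 in day 10 controls. Every day 13 control was above every day 10 control. The rise was small, 0.11 ± 0.03 in controls (SE, limma adjusted p = 0.00955) and 0.13 ± 0.03 at 36.8 °C (adjusted p = 0.00178). At 38.8 °C it was 0.08 ± 0.03 (adjusted p = 0.0945), and 0.11 without the 2 arrays with liver markers (adjusted p = 0.0134). A fit of only the control groups gave GAPDH an adjusted p of 0.101. GAPDH is near the top by rank, with only 3 or 4 probe sets brighter on a day 35 control array. Whether such spots are saturated is not recorded in the sources used here.

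ENO1 encodes the enolase of embryonic and many adult non-muscle tissues. It was 13.22, 13.34 and 13.39 in day 13 embryos at 36.8 °C, against 12.98, 13.20 and 13.26 in day 10 embryos at that temperature, with a narrow overlap. This rise of 0.15 ± 0.05 passed the threshold (SE, limma adjusted p = 0.0256), though not in a fit of only those groups (adjusted p = 0.0604). The ENO1 difference was 0.03 in controls (adjusted p = 0.759) and -0.09 at 38.8 °C (adjusted p = 0.263).

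PYGL, the liver form of glycogen phosphorylase, which frees glucose 1-phosphate from glycogen, was 8.15, 8.41 and 8.58 on day 13 at 38.8 °C, against 8.24, 8.63 and 10.00 on day 10. The fall of 0.43 (limma difference -0.43 ± 0.15, adjusted p = 0.0299) rested on the 2 arrays with liver markers, at 10.00 and 9.43. Without them it was -0.14 (adjusted p = 0.443). The PYGL difference was -0.10 in controls (adjusted p = 0.689) and -0.24 at 36.8 °C (adjusted p = 0.253). TPI1, which converts the 3-carbon products of aldolase into each other, had group medians of 11.64 to 11.68 on day 13 and 11.61 to 11.75 on day 10, with differences of -0.07, 0.00 and 0.00 in controls, at 38.8 °C and at 36.8 °C (adjusted p = 0.616 to 0.994).

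In sum over the 7 members, day 13 differed from day 10 for 2 in controls, where 26.8 percent of all 20706 probe sets were called, for 3 at 38.8 °C (22.8 percent) and for 2 at 36.8 °C (26.4 percent). The 2 of 7 in controls and at 36.8 °C lie near the background, and the 3 at 38.8 °C include PYGL, which was lost without arrays 9 and 13. Without those arrays LDHB and GAPDH were called at all 3 temperatures, PGK1 in controls and at 38.8 °C, and ENO1 at 36.8 °C, beside 27.4 percent of probe sets called in controls, 20.1 percent at 38.8 °C and 26.9 percent at 36.8 °C. The median member difference was -0.07 in controls beside -0.02 over all probe sets, -0.09 beside -0.04 at 38.8 °C, and 0.00 beside 0.02 at 36.8 °C.

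**Figure D3:**
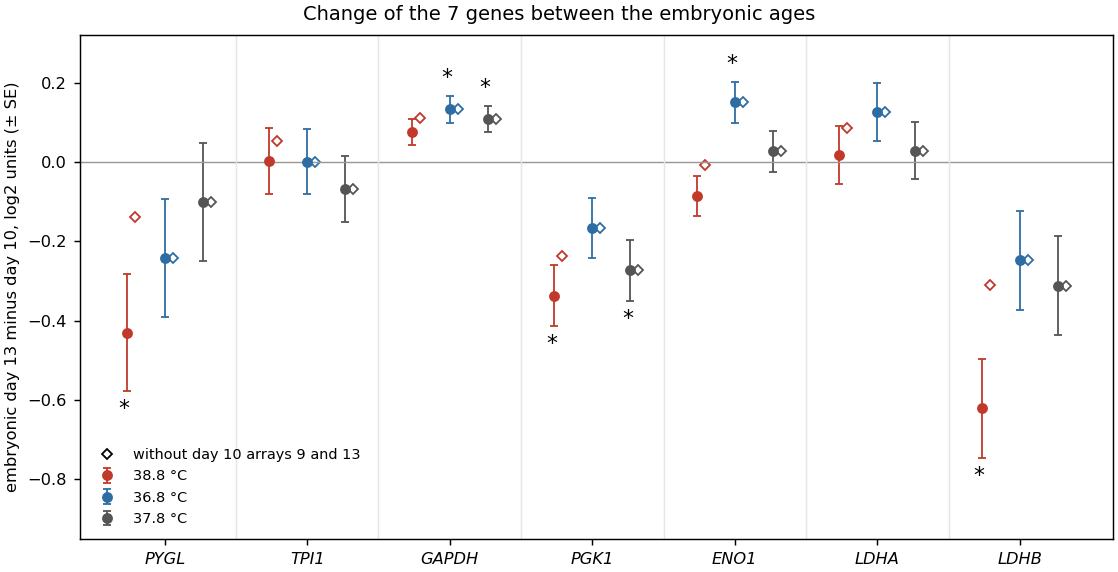
Day 13 minus day 10 difference (log2, limma, bars are SE) of the 7 members at 38.8 °C, at 36.8 °C and in 37.8 °C controls, with a star at an adjusted p under 0.05 and diamonds for the fit without the day 10 arrays 9 and 13. LDHB lies between -0.62 and -0.25 and, without the 2 arrays, between -0.31 and -0.25, while LDHA lies between 0.02 and 0.13.

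Of 62 other listed genes of glycolysis and glycogen use, 40 had a probe set. In controls 9 of the 40 rose and 5 fell between day 10 and day 13, where 9.65 percent of all probe sets rose and 17.2 percent fell. Without arrays 9 and 13 in the shared fit, 10 rose and 8 fell. At 38.8 °C 9 rose and 10 fell (background 8.40 and 14.4 percent), or 9 and 7 without the 2 arrays with liver markers. At 36.8 °C 10 rose and 6 fell (background 14.4 and 12.1 percent), or 11 and 8 without them. The median difference of the 40 genes was 0.01 in controls, -0.05 at 38.8 °C and 0.14 at 36.8 °C.

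The 3 largest rises at each temperature came from PPP1R3A, PFKM, PHKB and GYG1. PPP1R3A, the muscle subunit that brings a phosphatase to glycogen, rose by 2.64 in controls (limma adjusted p = 1.26e-10), 2.43 at 38.8 °C (adjusted p = 1.55e-09) and 2.68 at 36.8 °C (adjusted p = 7.2e-11). PFKM, the muscle form of phosphofructokinase, rose by 1.08 in controls (adjusted p = 9.19e-07), 1.36 at 38.8 °C (adjusted p = 7.81e-09) and 1.32 at 36.8 °C (adjusted p = 1.01e-08). PHKB, a subunit of the kinase that switches on phosphorylase, rose by 0.97 in controls (adjusted p = 2.1e-05) and 1.07 at 36.8 °C (adjusted p = 4.13e-06). GYG1, the primer of glycogen synthesis, was among the 3 largest rises at 38.8 °C, at 0.68 (adjusted p = 0.00012).

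The 3 largest falls were those of PYGB, SLC2A1 and PFKP in controls, and of PYGB, SLC16A1 and SLC2A1 at 36.8 °C. PYGB, the brain form of glycogen phosphorylase, fell by 0.90 in controls (limma adjusted p = 1.5e-06), 0.72 at 38.8 °C (adjusted p = 9.69e-05) and 0.69 at 36.8 °C (adjusted p = 0.000128). PFKP, the platelet form of phosphofructokinase, fell by 0.31, 0.19 and 0.20 at the same temperatures, all past the threshold. SLC2A1, the glucose carrier found in most embryonic tissues, fell by 0.42 in controls (adjusted p = 0.000288) and 0.40 at 36.8 °C (adjusted p = 0.000536). SLC16A1, a lactate carrier, fell by 0.76 at 38.8 °C (adjusted p = 8.48e-05) and 0.47 at 36.8 °C (adjusted p = 0.0144), and its control difference was -0.34 (adjusted p = 0.0783). Without arrays 9 and 13 the SLC16A1 fall at 38.8 °C was smaller, at -0.45 (adjusted p = 0.000233), and the control difference passed (-0.34, adjusted p = 0.00142).

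At 38.8 °C the 3 largest falls were FBP1, a liver enzyme of glucose synthesis, at -1.59 (adjusted p = 0.0422), PCK2, at -1.02 (adjusted p = 0.0146), and SLC37A4, the glucose 6-phosphate carrier, at -0.89 (adjusted p = 0.0053). Without the day 10 arrays 9 and 13 they were -0.07 (adjusted p = 0.861), -0.20 (adjusted p = 0.16) and -0.27 (adjusted p = 0.0276). Only SLC37A4 of these 3 remained past the threshold.

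Markers of other tissues also differed between the embryonic ages. The mean of 11 cartilage markers was 6.49 to 9.57 on day 13 arrays and 6.47 to 10.38 on day 10 arrays, and 10 of the 11 fell in controls. Among fast muscle markers 13 of 14 rose in controls and 1 fell. Of 10 slow, cardiac and embryonic sarcomere markers 4 rose and 3 fell there, and of 6 nerve and Schwann cell markers 2 rose and 2 fell. Of 8 erythroid markers 3 were called lower and 0 higher in controls, and of 5 adipocyte markers 3 were called higher and 0 lower. Of all probe sets 9.65 percent were called higher and 17.2 percent lower. The mean of 8 epidermis and feather markers was 5.97 to 9.06 on day 13 arrays and 5.79 to 9.28 on day 10 arrays. The part of these tissues in the differences of LDHB, PGK1 and the other genes above was not tested.

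Relatives of the members are given at all 3 ages, with no test between embryo and day 35. Controls had a PFKM signal of 7.71, 8.78 and 12.85 on day 10, day 13 and day 35, a PFKP signal of 10.33, 10.02 and 7.62, and a PFKL signal (the liver form) of 8.24, 7.98 and 7.26. PFKL passed the threshold at 38.8 °C, at -0.38 (limma adjusted p = 0.00512; without the 2 arrays -0.20, adjusted p = 0.0606), and at 36.8 °C, at -0.32 (adjusted p = 0.0187). In controls it was -0.26 (adjusted p = 0.0609), which passed without the 2 arrays (adjusted p = 0.005).

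Control means of PYGB, in the same order of ages, were 8.96, 8.05 and 6.77. HK1, a hexokinase of most tissues, had 9.81, 9.86 and 10.67, and PGM2, a relative of PGM1, 8.05, 8.32 and 5.62. ENO2, the enolase of neurons, had 6.02, 5.80 and 5.72. None of HK1, PGM2 and ENO2 passed the threshold between the embryonic ages over all arrays. At 36.8 °C the ENO2 difference of -0.26 (limma adjusted p = 0.099) passed without arrays 9 and 13 (adjusted p = 0.0463) and with quantile normalization (-0.31, adjusted p = 0.0272).

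The probe set named PKLR, for which the RefSeq table lists PKM as a synonym, encodes a pyruvate kinase, the last enzyme before lactate dehydrogenase. It averaged 12.22, 11.94 and 13.68 in controls of day 10, day 13 and day 35, and fell on day 13 by 0.28 in controls (limma adjusted p = 0.000973) and 0.39 at 36.8 °C (adjusted p = 8.04e-06). At 38.8 °C its difference was -0.06 (adjusted p = 0.578). GPI, the second enzyme of glycolysis, averaged 12.37, 12.38 and 13.38 and rose on day 13 at 36.8 °C, by 0.17 (adjusted p = 0.0227), a call lost with quantile normalization (0.12, adjusted p = 0.109). The lactate carriers averaged 9.52, 9.18 and 8.22 for SLC16A1 and 8.92, 8.74 and 9.52 for SLC16A3, the carrier of glycolytic muscle. SLC16A3 did not pass between the embryonic ages.

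Incubation temperature left no member past the threshold against control at any age. In the limma fits 0 of 7 members were called on day 10 at 38.8 °C and at 36.8 °C (0 percent of probe sets in both), on day 13 at 38.8 °C and at 36.8 °C (0.00483 percent in both) and in the 4 treated groups of day 35 (0 percent in all 4). At an unadjusted p under 0.05 there were 0 and 0 members on day 10, 0 and 2 on day 13, and 0, 1, 0 and 1 at day 35. The share of all probe sets at that p was 6.29 and 2.36 percent on day 10, 12.3 and 14.2 percent on day 13, and between 3.09 and 6.40 percent at day 35. At the adjusted threshold, the listing block as a term raised the share called on day 13 at 36.8 °C from 0.00483 to 4.23 percent. Of those probe sets 798 were higher and 77 lower, and still 0 of 7 members were called. The treated groups of an age share their controls.

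On day 10 at 38.8 °C the largest member differences were PYGL at 0.35 ± 0.20 (SE, adjusted p = 0.628) and LDHB at 0.25 ± 0.17 (adjusted p = 0.632). PYGL had 8.24, 8.63 and 10.00 at 38.8 °C against 8.23, 8.44 and 8.84 in controls (lowest, median, highest), and LDHB had 12.13, 12.24 and 13.61 against 12.19, 12.31 and 12.41. Both highest values come from array 9. Without arrays 9 and 13 the differences were 0.06 for PYGL and -0.07 for LDHB. On these 2 arrays LDHA was 12.40 and 12.20, against 11.79 to 12.26 on the other 22, ENO1 13.57 and 13.45 against 12.98 to 13.33, and PGK1 10.62 and 10.38 against 9.89 to 10.38. GAPDH was 13.83 and 13.77 there, against 13.55 to 13.73 on the others. TPI1, at 11.82 and 11.78, lay within the range of the others.

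At 36.8 °C the day 10 member differences lay between -0.06 for LDHA and 0.21 for PYGL, with adjusted p-values of 1. PYGL was 8.24, 8.84 and 9.02 at 36.8 °C, against 8.23, 8.44 and 8.84 in controls. The groups overlapped over most of their range.

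On day 13 the members with the smallest p against control were ENO1 and PGK1, both at 36.8 °C. ENO1 was 13.22, 13.34 and 13.39 there, against 13.12, 13.21 and 13.33 in controls, a difference of 0.11 ± 0.04 (SE, adjusted p = 0.238). PGK1 was 9.86, 9.99 and 10.19, against 9.81, 9.86 and 9.98, a difference of 0.12 ± 0.06 (adjusted p = 0.351). At 38.8 °C the differences lay between -0.06 for LDHB and 0.05 for TPI1.

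Setting 38.8 °C against 36.8 °C, 1 of 7 members was called on day 13, where 5.88 percent of probe sets were called, and 0 of 7 on day 10 (0.0338 percent; 24.4 percent at an unadjusted p under 0.05). ENO1 was 13.09, 13.18 and 13.33 at 38.8 °C on day 13, against 13.22, 13.34 and 13.39 at 36.8 °C, a difference of -0.14 ± 0.04 (SE, limma adjusted p = 0.0464). LDHB differed by -0.14 ± 0.05 (adjusted p = 0.0906) and PGK1 by -0.12 ± 0.06 (adjusted p = 0.2). All 38.8 °C arrays lie in listing block 1 and all 36.8 °C arrays in block 2, so the block can be estimated only through the controls, 4 of which lie in each. With the block as a term the ENO1 difference was -0.20 and did not pass (adjusted p = 0.166). The median difference over all probe sets was -0.087 with the block and 0.004 without it.

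Of the 40 other pathway genes, 3 were higher at 38.8 °C than at 36.8 °C on day 13 and 0 lower (background 3.54 and 2.34 percent), and 0 were higher or lower on day 10 (background 0.00966 and 0.0241 percent). The 3 of day 13 were PPP1R3A at 0.62 (limma adjusted p = 0.0116), PHKB at 0.46 (adjusted p = 0.00253) and PFKM at 0.40 (adjusted p = 0.0121), and with the block as a term 0 were called on either day. With quantile normalization 4 were higher and 4 lower on day 13 (10.9 percent of probe sets called). On day 10 it gave 1 higher and 0 lower (1.59 percent). Against control none of the 40 was called at any age without the block. The smallest p-values on day 13 belonged to PFKM at 0.27 and PHKB at 0.20 for 38.8 °C, and to PHKB at -0.26 and PFKFB2 at 0.25 for 36.8 °C. With the block as a term PFKFB2, an enzyme that sets the level of an activator of phosphofructokinase, was called at 36.8 °C (0.40, adjusted p = 0.0252). It was 1 of 40, beside 4.23 percent of all probe sets, whose median difference was 0.086 in that fit. The other day 13 differences with the block were 0.17 for PFKM and 0.12 for PHKB at 38.8 °C, and -0.18 for PHKB at 36.8 °C. On day 10 the smallest p-values belonged to PHKB at 0.54 and PCK2 at 0.85 for 38.8 °C, of which PCK2 was 0.04 without arrays 9 and 13. For 36.8 °C they belonged to HIF1A at -0.40 and HKDC1 at -0.27. With the block as a term these day 10 differences were 0.10 for PHKB, 0.97 for PCK2, -0.01 for HIF1A and -0.24 for HKDC1. The number of the 40 genes at an unadjusted p under 0.05 against control was 1 and 0 on day 10 and 5 and 8 on day 13. Over all probe sets that share was 6.29 and 2.36 percent on day 10 and 12.3 and 14.2 percent on day 13.

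No temperature difference of LDHA minus LDHB in the embryo passed the exact permutation test. On day 10 the mean difference from control was -0.22 ± 0.17 at 38.8 °C (SE, adjusted p = 0.548), or 0.03 without arrays 9 and 13, and -0.07 ± 0.07 at 36.8 °C (adjusted p = 0.548). On day 13 it was 0.08 ± 0.07 at 38.8 °C (adjusted p = 0.548) and -0.04 ± 0.07 at 36.8 °C (adjusted p = 0.596). The nearest to the threshold of the temperature comparisons was 38.8 °C minus 36.8 °C on day 13, at 0.12 ± 0.07 (unadjusted p = 0.0996, adjusted p = 0.374).

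At day 35, LDHB was the member that varied most between birds of 1 group. Its SD pooled over the 5 groups was 0.50, against 0.09 for LDHA, 0.19 for PYGL, 0.18 for PGK1, 0.17 for ENO1, 0.16 for TPI1 and 0.04 for GAPDH. LDHA, like GAPDH, was near the top by rank, with 18 to 27 probe sets brighter on a day 35 control array. Whether its spots are saturated is not recorded either. On embryo arrays the pooled SD of LDHB was 0.09 on day 13 and 0.34 on day 10, or 0.08 without arrays 9 and 13.

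Birds incubated at 38.8 °C had LDHB values of 8.57, 9.44 and 10.22 (lowest, median, highest) after days 7 to 10 and of 8.73, 9.42 and 10.15 after days 10 to 13. Those incubated at 36.8 °C had 9.36, 9.75 and 10.51 after days 7 to 10 and 9.16, 9.88 and 11.02 after days 10 to 13, and controls had 9.05, 9.67 and 10.57. The ranges of all 5 groups overlapped.

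The LDHB differences from control were -0.24 ± 0.25 and -0.33 ± 0.25 at 38.8 °C and 0.12 ± 0.25 and 0.28 ± 0.25 at 36.8 °C, in the same order of intervals (SE, limma adjusted p = 0.974, 1, 1 and 0.899). By block, the controls had an LDHB mean of 9.50 ± 0.32 in block 1 and 9.91 ± 0.70 in block 2 (SD, n = 4 each). With the block as a term the LDHB differences were -0.04, -0.12, -0.08 and 0.08. Without the bird of highest LDHB, the 36.8 °C difference for days 10 to 13 was 0.14 (adjusted p = 0.888). Liver markers had median differences from control of -2.51, -2.24, 2.09 and 2.30, which were -0.22, 0.11, -0.37 and -0.07 with the block. Their part in the LDHB values was not tested.

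LDHA at day 35 was 13.37, 13.68 and 13.76 at 38.8 °C on days 7 to 10, 13.66, 13.69 and 13.75 at 38.8 °C on days 10 to 13, 13.54, 13.65 and 13.73 at 36.8 °C on days 7 to 10, 13.38, 13.62 and 13.74 at 36.8 °C on days 10 to 13, and 13.53, 13.68 and 13.71 in controls. The differences from control were between -0.04 and 0.03, and all groups overlapped. LDHA minus LDHB was 4.18 ± 0.53 and 4.32 ± 0.47 at 38.8 °C and 3.82 ± 0.43 and 3.63 ± 0.65 at 36.8 °C, in the same order of intervals, against 3.96 ± 0.58 in controls (SD, n = 8 each). The differences from control were 0.22 ± 0.28, 0.36 ± 0.26, -0.14 ± 0.26 and -0.33 ± 0.31 (SE, exact permutation test, adjusted p = 0.548 to 0.596). Against the controls of the same block they were -0.02, 0.12, 0.11 and -0.08. Without the bird of highest LDHB the last was -0.14 over all controls, and without the array of lowest correlation the first was 0.37.

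Between intervals at the same temperature, 0 of 7 members were called at 38.8 °C (0.00483 percent of probe sets) and at 36.8 °C (0 percent), with 0 and 0 members, and 4.90 and 2.01 percent of probe sets, at an unadjusted p under 0.05. Days 10 to 13 minus days 7 to 10 gave 0.14 ± 0.25 at 38.8 °C and -0.19 ± 0.28 at 36.8 °C for LDHA minus LDHB (exact permutation test, adjusted p = 0.596 each). The value at 36.8 °C was -0.01 without the bird of highest LDHB.

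**Figure D4:**
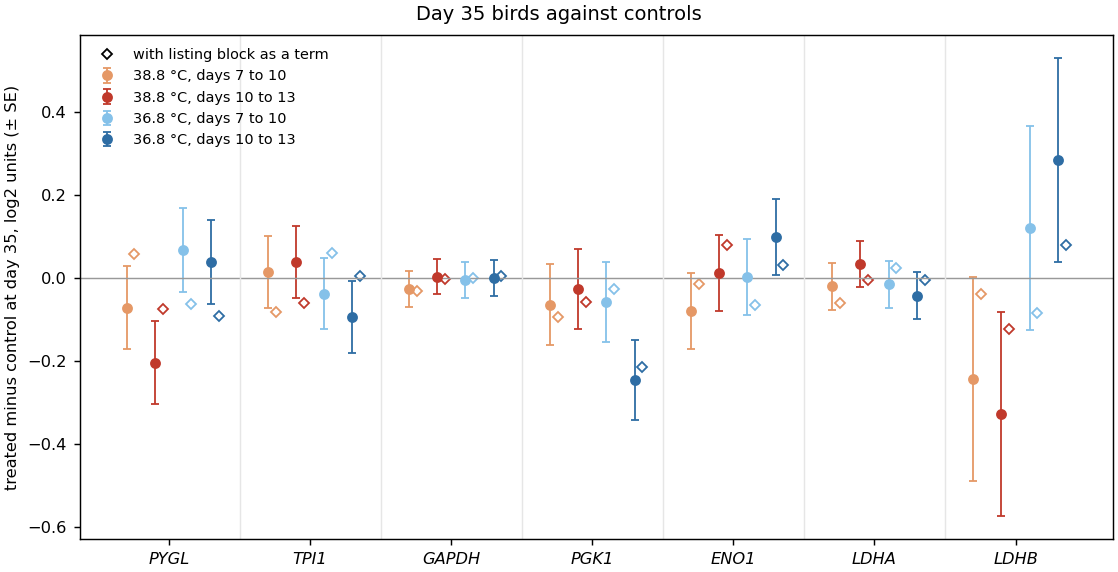
Day 35 difference from control (log2, limma, bars are SE) of the 7 members in the 4 treated groups, with diamonds for the fit with the listing block as a term. LDHB spans -0.33 to 0.28 without the block and -0.12 to 0.08 with it, and LDHA spans -0.04 to 0.03.

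Of the remaining members at day 35, PGK1 had 12.09, 12.90 and 13.09 after 36.8 °C on days 10 to 13, against 12.91, 13.02 and 13.19 in controls. The lowest value lay well under the others. The PGK1 difference was -0.25 ± 0.10 (SE, limma adjusted p = 0.695), and -0.14 without that array (adjusted p = 0.584).

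PYGL had 9.51, 9.72 and 10.05 after 38.8 °C on days 10 to 13, against 9.52, 10.05 and 10.20 in controls, a difference of -0.20 ± 0.10 (adjusted p = 1) that was -0.07 with the block as a term. TPI1 group means were 13.15 to 13.28 with arrays between 12.58 and 13.43, and GAPDH group means 14.14 to 14.17 with arrays between 13.97 and 14.22. ENO1 group means were 12.40 to 12.58 with arrays between 12.02 and 13.01, beside 12.98 to 13.57 on embryo arrays.

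For the 40 other pathway genes, 0 were called against control at day 35, with 2, 1, 0 and 6 of them at an unadjusted p under 0.05 in the order above. The share of all probe sets at that p was 6.40, 3.14, 3.09 and 6.37 percent. The count of 6 includes the bird of lowest PGK1. GYG2, a second glycogenin, had the smallest p in both 38.8 °C groups, at -0.34 each. After 36.8 °C the smallest p belonged to HKDC1, at 0.29, for days 7 to 10 and to PPP1R3A, at -0.32, for days 10 to 13, followed by ENO2, at 0.38 (0.24 without the bird of lowest PGK1).

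How the members varied together between birds was examined on deviations from group means, over the 21 pairs of members at each of 3 ages, with 100000 permutations within groups and adjustment over the 63 relations. Control groups span both listing blocks, so a block offset among controls enters r, rho and p. In day 35 controls TPI1 averaged 13.34 in block 1 and 13.15 in block 2. In day 10 controls the averages in blocks 1 and 2 were 11.50 and 11.84 for TPI1 and 12.25 and 12.34 for LDHB. The r given by block uses group means of that block alone. By Pearson's r, 11 of 21 pairs passed at day 35, 7 positive and 4 negative, and 9 of the 11 also passed by rho. Birds with more LDHB signal had less TPI1, with r = -0.662 (p = 1e-05, adjusted p = 0.000315) and rho = -0.586 (p = 0.00027, adjusted p = 0.00283) over 40 arrays. The value was -0.589 without the 2 arrays farthest from the LDHB median, -0.501 in block 1 and -0.729 in block 2. Here and below the 2 farthest arrays were picked by 1 gene of the pair. That gene was LDHA in all pairs of LDHA, LDHB in its other pairs, and TPI1 for TPI1 with PGK1.

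LDHB was also lower where PGK1 was higher, with r = -0.541 (p = 0.00101, adjusted p = 0.00424) and rho = -0.403 (p = 0.013, adjusted p = 0.0328). It was -0.488 without the 2 farthest arrays, -0.481 in block 1 and -0.573 in block 2. ENO1 ran with LDHB, with r = 0.686 (p = 2e-05, adjusted p = 0.00042) and rho = 0.560 (p = 0.00043, adjusted p = 0.00387), or 0.584 without the 2 farthest arrays, 0.488 in block 1 and 0.818 in block 2. TPI1 and PGK1 ran together, with r = 0.854 (p = 1e-05, adjusted p = 0.000315) and rho = 0.707 (p = 3e-05, adjusted p = 0.00157), or 0.672 without the 2 farthest arrays, 0.818 in block 1 and 0.898 in block 2. A p of 1e-05 is the smallest these permutations can give.

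LDHA itself ran with TPI1 at day 35, with r = 0.708 (p = 0.00037, adjusted p = 0.00233) and rho = 0.459 (p = 0.00472, adjusted p = 0.0186), and r was 0.412 without the 2 farthest arrays, 0.764 in block 1 and 0.670 in block 2. With GAPDH its r was 0.701 (p = 0.00063, adjusted p = 0.00331) and rho 0.398 (p = 0.0153, adjusted p = 0.037), or r = 0.367 without the 2 farthest arrays, 0.786 in block 1 and 0.665 in block 2. With PGK1 its r was 0.701 (p = 0.00083, adjusted p = 0.00402) but rho 0.353 did not pass (p = 0.0361, adjusted p = 0.0711), and r was 0.357 without the 2 farthest arrays, 0.592 in block 1 and 0.792 in block 2. These Pearson values of LDHA lean on the 2 arrays farthest from its median.

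LDHA and LDHB were not related past the threshold at any age, with adjustment over 3 relations. At day 35 r was -0.347 (p = 0.0453, adjusted p = 0.136) and rho -0.055 (p = 0.742, adjusted p = 0.742), and r was -0.038 without the 2 farthest arrays, -0.191 in block 1 and -0.419 in block 2. On day 13 r was 0.277 (p = 0.213, adjusted p = 0.213) and rho 0.267 (p = 0.226, adjusted p = 0.339), with r of 0.355 in block 1 and 0.049 in block 2. On day 10, without arrays 9 and 13, r was 0.30 (p = 0.201, adjusted p = 0.213) and rho 0.289 (p = 0.213, adjusted p = 0.339), with r of 0.196 in block 1 and 0.212 in block 2.

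In the embryo the relations of LDHB with PGK1 were positive. On day 10, over 22 arrays, r was 0.767 (p = 0.00015, adjusted p = 0.00118) and rho 0.698 (p = 0.00094, adjusted p = 0.00561), and r was 0.654 without the 2 farthest arrays, 0.50 in block 1 and 0.853 in block 2. On day 13, over 24 arrays, r was 0.636 (p = 0.00275, adjusted p = 0.00962) and rho 0.690 (p = 0.0007, adjusted p = 0.00551), and r was 0.677 without the 2 farthest arrays, 0.642 in block 1 and 0.730 in block 2. With TPI1 the r of LDHB was 0.790 on day 10 (p = 9e-05, adjusted p = 0.000945; 0.417 in block 1 and 0.933 in block 2), with rho of 0.792 (p = 5e-05, adjusted p = 0.00157). On day 13 it was 0.390 (p = 0.0894, adjusted p = 0.152; 0.334 in block 1 and 0.550 in block 2), with rho of 0.451 (p = 0.043, adjusted p = 0.0821). Of the 21 pairs, 12 passed by r on day 10 and 4 on day 13, all positive, of which 12 and 2 also passed by rho. Whether a correlation differs between ages was not tested.

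**Figure D5:**
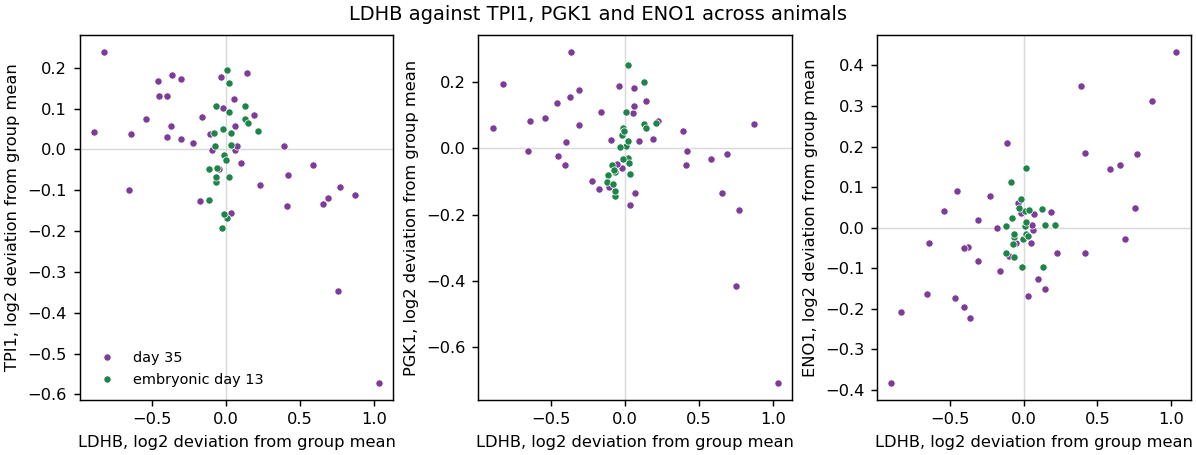
LDHB against TPI1, PGK1 and ENO1 as deviations from group means (log2), 1 point per array, at day 35 and on day 13. At day 35 r is -0.662 with TPI1, -0.541 with PGK1 and 0.686 with ENO1, and on day 13 it is 0.390, 0.636 and 0.041.

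Among all named genes, those most like LDHB over the 40 day 35 arrays were MGST1 (r = 0.857), SELENOP1 (r = 0.833) and EEF1A1 (r = 0.828), of 7099 genes compared. The most opposite were PHKA1 (r = -0.788), AMPD1 (r = -0.728) and PFKM (r = -0.720). PHKA1 encodes the muscle regulatory subunit of phosphorylase kinase and AMPD1 the AMP deaminase of muscle. For LDHA the most alike were COX3 (r = 0.742), PKLR (r = 0.722) and TPI1 (r = 0.708). These day 35 rankings were not repeated with outlying arrays left out. The r of LDHA with TPI1 was 0.412 without the 2 arrays farthest from the LDHA median. On the bird of lowest PGK1, PKLR was 13.26 (the others 13.44 to 13.78), and PHKA1 and PFKM also lay below all others.

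Over the 48 embryo arrays and 7210 genes, SLC37A4 (r = 0.939), SLC25A1 (r = 0.935) and PCK2 (r = 0.934) were most like LDHB. Without the day 10 arrays 9 and 13 they were NIFK (r = 0.713), the PGK1 probe set (r = 0.687) and RNF175 (r = 0.668), of 7205 genes. LDHA was most like SERPING1 (r = 0.543), PARK7 (r = 0.528) and the PGK1 probe set (r = 0.525), and without the 2 arrays most like FBXO7, followed by CLN6 and PHF5A (r = 0.521 each). These correlations are descriptions over arrays with no test, and how the arrays were scaled is not given in the sources used here.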

How the data were processed

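RNA came from single frozen muscle samples and was hybridised as biotin-labelled cRNA, as the labels' protocols state. GCOS 1.1.1 is named in the submitters' processing notes. Probe summary and normalization: not given in the sources used here. Each probe set has 1 deposited value an array, taken as a log2 signal because the values span 0 to 20.9. Arrays carry no depth, and their number limits the precision.

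Leaving out 98 control probe sets, 20706 entered the 2-sided tests, run in R 4.3.3 with lmFit, contrasts.fit and eBayes of limma 3.58.1, with Benjamini-Hochberg adjustment over all of them and a threshold of 0.05. Groups of an age were fitted together, and the embryonic ages in 1 fit of 48 arrays. The fit was also run on simulated data, with values drawn independently for each probe set. Those data held no listing block and no outlying arrays, so they do not test the effect of either. LDHA minus LDHB was compared by exact permutation over arrays.

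The members, gene lists and marker lists were chosen with earlier results of these data known. Named genes are all members, their listed relatives, and per comparison up to 3 other pathway genes rising and 3 falling most past the threshold, or the 2 of smallest p. Alternatives were quantile normalization, the listing block, a trended and robust prior, a filter on dim probe sets, fits of only 2 groups, and arrays left out.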

Additional observations from a re-analysis of the deposited data

Results flagged for a closer look

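Of 88 groups of 8 arrays examined (the members and LDHA minus LDHB, by group), 9 held a highest or lowest array whose gap to its nearest neighbour was large by Dixon's criterion. Chance gives about 1 in 20 such groups. Of the 9, 3 come from 1 bird (36.8 °C on days 10 to 13, day 35), the lowest of its group for LDHA (13.38, the next 13.60), TPI1 (12.58, the next 13.02) and PGK1 (12.09, the next 12.68). Another 3 come from array 11 (38.8 °C on days 7 to 10, day 35), which also has the lowest correlation with the other day 35 arrays. It was the lowest of its group for LDHA (13.37, the next 13.59), TPI1 (12.91, the next 13.26) and GAPDH (13.97, the next 14.13). The other 3 were small in size: control array 83 at day 35 was low for LDHA (13.53, the next 13.63), array 77 at 36.8 °C on day 13 was high for GAPDH (13.88, the next 13.80), and 1 bird of 36.8 °C on days 7 to 10, day 35, was high for GAPDH (14.19, the next 14.16).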

How the results depend on the processing

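Over 105 member differences between groups, 45 changed sign under at least 1 alternative, among them 0 of the 8 that passed the threshold. On day 13 the 1 member called for 38.8 °C minus 36.8 °C became 0 with the listing block, with quantile normalization and the block, and with only those groups fitted. Of all probe sets 5.88 percent were called in the main fit, and 0.135, 0.00483 and 8.04 percent in these alternatives. For day 13 minus day 10 at 36.8 °C, 2 members became 4 with quantile normalization, with or without the block. The share of all probe sets called there was 26.4 percent in the main fit, 30.6 percent with quantile normalization and 32.4 percent with the block added. LDHA minus LDHB changed sign without day 10 arrays 9 and 13 for 38.8 °C minus control (0.0255) and minus 36.8 °C (0.0979), against same-block controls at day 35 for 38.8 °C and 36.8 °C on days 7 to 10 (-0.0213 and 0.1084), and without the array of lowest correlation for the 38.8 °C intervals (-0.0086). LDHB changed sign on day 10 without those arrays for 38.8 °C minus control (-0.0659) and minus 36.8 °C (-0.0783). For 36.8 °C minus control it did so on day 10 with the block (-0.0321, quantile -0.0235), on day 13 with quantile and block (-0.0417), and at day 35 after days 7 to 10 with the block (-0.0839, quantile -0.0308). TPI1 at 36.8 °C between the embryonic ages was -0.0380 with quantile normalization, with or without the block, and PKLR on day 10 for 38.8 °C minus 36.8 °C was 0.0279 with the block. The causes were not tested. Leaving out the 2 day 10 arrays or the day 35 bird of lowest PGK1, and quantile normalization with the block, were chosen after seeing the data. Another probe set per gene was not run, since each member has 1, and promoter motifs were not run. No same-block value exists for 38.8 °C minus 36.8 °C. No paired analysis was possible because the groups compared hold different animals and share no replicate numbers that the labels tie together.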

Other observations

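The day 35 bird of lowest PGK1 (36.8 °C on days 10 to 13), singled out after its values were seen, differed from the other 39 of that age for part of the pathway genes. Its LDHB, 11.02, was the highest at that age, with ENO1 at 13.01. The array also stood apart as a whole, with the highest median signal of day 35, at 6.76. Its median correlation of 0.923 was toward the low end for that age (0.901 to 0.947). Of the 40 other pathway genes, 10 lay below and 9 above all 39 other arrays, a count not taken over all probe sets. Below were PFKM (11.82, the others 12.37 to 13.08), the muscle fructose bisphosphatase FBP2 (10.77, the others 11.30 to 12.49), the glycerol phosphate dehydrogenase GPD1 (12.20, the others 12.85 to 13.42), PHKA1 (11.16, the others 11.56 to 12.42) and BPGM (11.81, the others 12.45 to 13.04). Above were PFKP (8.56, the others 6.88 to 8.14), ENO2 (7.05, the others 5.31 to 6.19), PGM2 (7.13, the others 4.72 to 6.86) and SLC2A1 (7.91, the others 6.37 to 7.51). The mean of 11 immune cell markers was 8.83 on it and 6.73 to 8.67 on the others. The part of those cells in its values was not tested.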
